A study of Homo sapiens with 6 samples.

Results

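Small Cajal body-specific RNAs (scaRNAs) were followed position by position in Nm-mut-seq of chromatin-associated RNA of HepG2, an established line of human hepatic carcinoma cells. Nm-mut-seq reads a 2′-O-methylated (Nm) G, A or C as T, since reverse transcriptase misincorporates at such a base when dATP is in large excess. Each of 3 biological replicates was ligated to adapters and then divided between imbalanced dNTP (1 mM dATP with 2 µM of each other dNTP) and balanced dNTP (1 mM dATP with 1000 µM of each other dNTP), which served as the input, giving 6 libraries. All libraries came from untreated cells of this line, with RNA under 200 nt removed and ribosomal RNA depleted. The members are the listed positions inside genes that GENCODE release 44 types as scaRNA, on the gene's own strand. They number 948 of the 387463 distinct positions of the series, with 783 listed under imbalanced dNTP, 499 under balanced dNTP and 334 under both.

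scaRNAs are guide RNAs of the Cajal body, a nuclear compartment in which spliceosomal small nuclear RNAs (snRNAs) are modified. Box C/D scaRNAs bind fibrillarin and direct 2′-O-methylation of the snRNA, box H/ACA scaRNAs bind dyskerin and direct pseudouridylation, and mixed scaRNAs carry both kinds of box. Most are cut from the introns of host genes. The type of each gene was assigned by its symbol from textbook knowledge, and 30 loci, 28 of them without a symbol, were left without a type. The tables do not list U positions, so only G, A and C are described.

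Every value below is a read count or a share of reads. The depth is the number of reads at a position in a library, and the mutation ratio is the part of that depth that reads T. A position is called here when its depth was at least 10, its reads with T were at least 3 and its ratio exceeded 3 times that of the input with the same number, in all 3 replicates. Where the balanced dNTP table does not list a position, its input ratio was taken as 0. The study also asked for a ratio above that of an unmodified spike-in under imbalanced dNTP, and this criterion was not applied here. A called position is therefore one that passed these cuts, and a call alone does not make it an Nm site. The imbalanced dNTP table holds only positions with at least 3 reads with T in some library, and neither table holds a depth under 5. At low depth it can therefore hold only high ratios.

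Across listed positions the summed depth was 17063930 to 22485865 under imbalanced dNTP and 22974020 to 34367262 under balanced dNTP, of which scaRNA genes held 88851 to 126015 and 128250 to 193098. These sums are not library sizes. Transcripts that mark hepatocytes were present in the tables, with 11 of 13 marker genes listed under imbalanced dNTP, and the markers of blood, stromal, endothelial and basal epithelial cells were listed at 0 of 7 genes. In bulk RNA, fewer cells with a transcript and less transcript per cell cannot be told apart.

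The 5 genes whose results can best be read base by base are shown first, on the transcribed strand in hg38, since the ratios differ from base to base within each. Capitals mark called positions with a mean ratio of at least 10%. Sequences were read from the hg38 genome, with T for U. SCARNA5 and SCARNA6 carry a C box (ATGATGA) close to the 5′ end and a D box (CTGA) close to the 3′ end.
SCARNA5, chr2:233275727-233276002, plus strand, 276 nt: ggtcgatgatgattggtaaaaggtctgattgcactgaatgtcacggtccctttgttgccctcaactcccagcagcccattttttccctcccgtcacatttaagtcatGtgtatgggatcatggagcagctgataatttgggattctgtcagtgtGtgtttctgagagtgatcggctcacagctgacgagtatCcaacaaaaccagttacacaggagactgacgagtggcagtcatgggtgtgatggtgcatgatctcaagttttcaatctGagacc
SCARNA6, chr2:233288676-233288940, plus strand, 265 nt: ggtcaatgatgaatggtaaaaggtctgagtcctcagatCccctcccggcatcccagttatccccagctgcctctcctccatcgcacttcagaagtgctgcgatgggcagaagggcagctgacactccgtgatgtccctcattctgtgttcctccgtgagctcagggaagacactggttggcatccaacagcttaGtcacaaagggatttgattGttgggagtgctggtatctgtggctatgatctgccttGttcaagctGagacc
SCARNA13, chr14:95533355-95533629, minus strand, 275 nt: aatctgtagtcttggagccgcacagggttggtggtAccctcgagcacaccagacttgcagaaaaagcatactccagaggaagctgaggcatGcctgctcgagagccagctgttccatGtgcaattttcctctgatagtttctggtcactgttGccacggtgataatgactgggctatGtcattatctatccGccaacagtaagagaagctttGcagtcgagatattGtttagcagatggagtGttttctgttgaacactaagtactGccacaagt
ENSG00000252139, chr18:49814361-49814443, plus strand, 83 nt: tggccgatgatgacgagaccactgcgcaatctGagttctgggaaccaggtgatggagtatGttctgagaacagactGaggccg
SCARNA2, at 420 nt too long to show whole, is given as the windows around 3 of its 6 such positions, and the others are described with their values.
SCARNA2 position 335 window, chr1:109100512-109100542, plus strand: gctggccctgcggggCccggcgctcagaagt
SCARNA2 position 386 window, chr1:109100563-109100593, plus strand: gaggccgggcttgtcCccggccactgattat
SCARNA2 position 419 window, chr1:109100596-109100612, plus strand: aggcgattctgatctGg

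Of 49 gene records, which are 47 separate loci, 13 held a listed position and 34 held none in either table. Called positions lay in 8 loci. The loci differed by length. Of the 6 loci of 200 nt or more, 5 held called positions, with 267 called of 691 listed, and of the 41 shorter loci 3 did, with 8 called of 92 listed. These are lengths of GENCODE records. The shorter loci include SCARNA17 (144 nt) and ENSG00000252139 (83 nt), which lie in 1 RefSeq gene of 421 nt. They held 1 and 6 of the 8 called and 19 and 40 of the 92 listed positions, so the split depends on the annotation. Short RNA was removed before library preparation, and its part in this split was not tested. In all, 275 of 783 listed positions were called (35.1%), against 16.8% of the listed positions of the whole series. At a depth of at least 50 in every imbalanced dNTP library the order turned, with 45.6% called in scaRNA genes and 64.2% in the whole series. At a depth of at least 100 the shares were 56.1% and 75.8%. These classes have no upper bound, and a depth of 400 or more was reached by 13 scaRNA positions and 10623 of the whole series. Between a depth of 50 and 99 the shares were 24.5% and 28.4%, and between 100 and 199 they were 50.9% and 53.0%. SCARNA2 held 57.5% of the called positions, and the other genes held 117.

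By type, all 3 C/D loci were listed and called, as were both mixed loci. Of 12 H/ACA loci 7 were listed and 2 had called positions. Of the 30 loci without a type only ENSG00000252139 was listed. C/D genes held 165 called positions of 372 listed, mixed genes 74 of 218 and H/ACA genes 30 of 153.

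**Figure D1:**
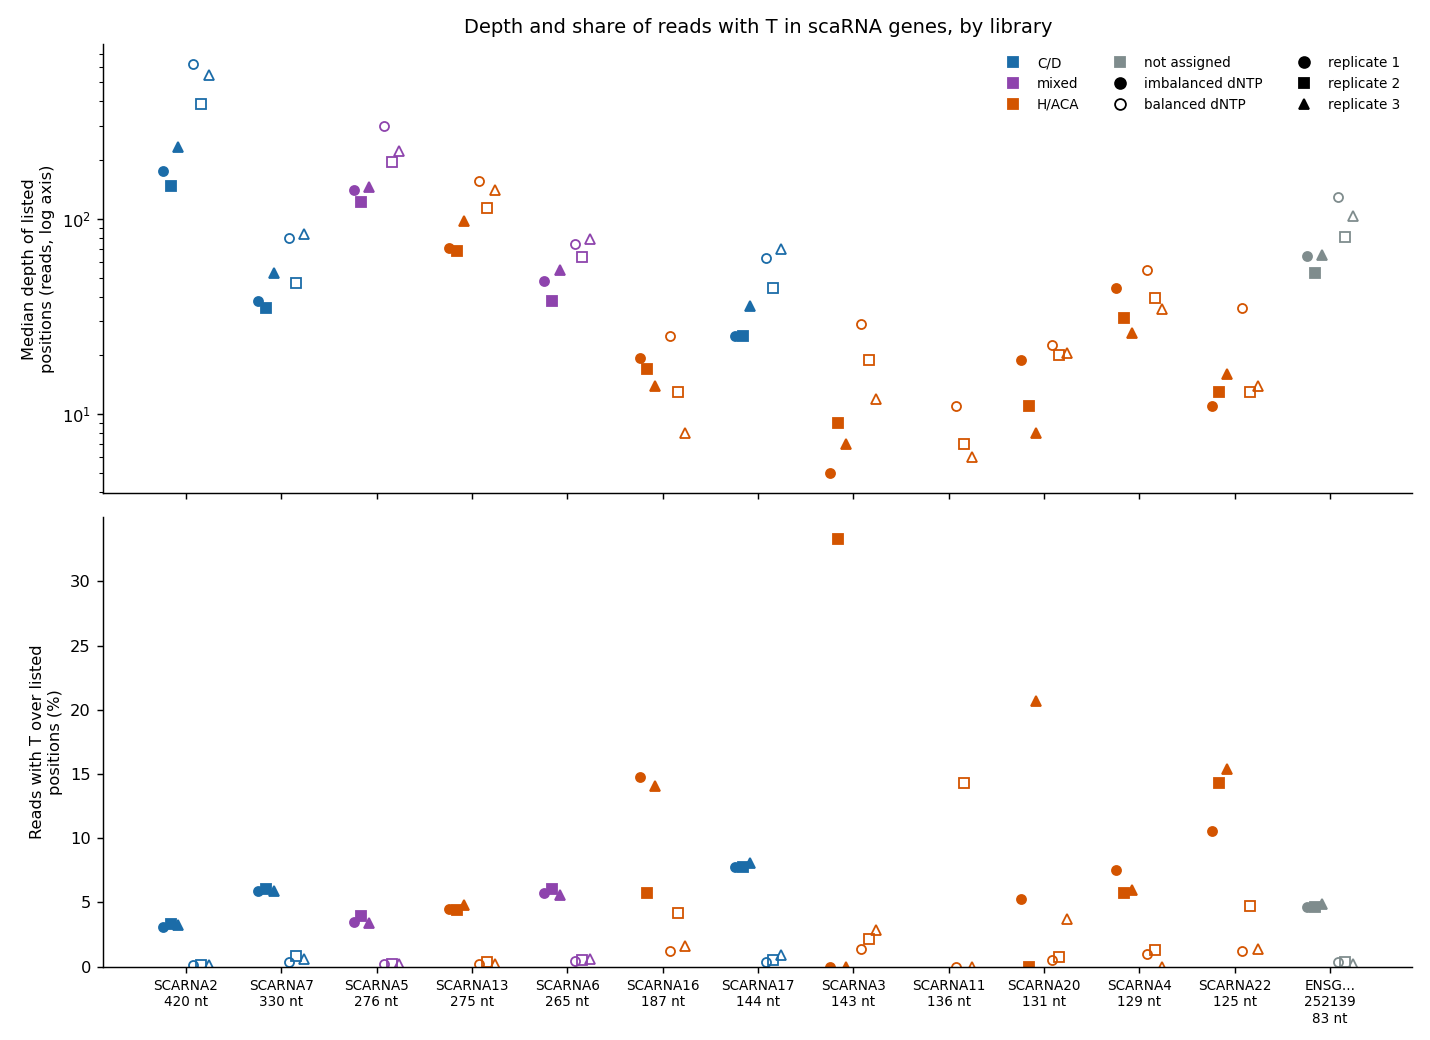
Median depth of the listed positions (upper panel, reads, log axis) and share of reads with T over the listed positions (lower panel, %) in each of the 6 libraries for the 13 listed scaRNA loci, in order of length. Filled symbols are imbalanced dNTP and open symbols balanced dNTP, colour is the type and shape the replicate. SCARNA2 was deepest, and the shallow short genes scattered between 0% and 33.3% under imbalanced dNTP.

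SCARNA2, a box C/D guide of U2 snRNA, was the deepest scaRNA gene (chromosome 1, 109100193 to 109100612). It lies within a long noncoding RNA gene of the same strand, whose reads cannot be told apart from its own. Its listed positions had median depths of 176, 147 and 234.5 under imbalanced dNTP in replicates 1 to 3 and 617.5, 386 and 543 under balanced dNTP. Balanced dNTP libraries were thus the deeper ones in every replicate. Of its 333 G, A and C bases, 276 were listed and 158 called. Under imbalanced dNTP 3.22% ± 0.111 (SD, n = 3) of its reads carried T, and under balanced dNTP 0.130% ± 0.0207.

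The highest ratio of SCARNA2 at a depth of at least 50 was at the C of position 335 (chromosome 1, 109100527), counted from the 5′ end of the gene. There 19 of 128, 19 of 114 and 31 of 171 reads had T under imbalanced dNTP, and 1 of 578, 2 of 384 and 7 of 552 under balanced dNTP. The libraries of the 2 conditions did not overlap, at 14.8% to 18.1% against 0.173% to 1.27%. The log2 change of the mutated share was 4.83 ± 0.52 (SE), with an adjusted p of 1.21e-19 by edgeR's quasi-likelihood test. The G of position 419, next to the last base, was also deeply covered, with 50 of 379, 39 of 319 and 63 of 459 reads with T under imbalanced dNTP and 2 of 671, 1 of 441 and 0 of 574 under balanced dNTP. The C of position 386 had 11.6% ± 0.481 (SD, n = 3) and the C of position 192 had 10.6% ± 3.18. The G of position 212 varied widely between replicates (SD 6.43 percentage points), with T in 28 of 147, 8 of 128 and 25 of 183 reads. The first base of the gene, a G, was shallow and varied as widely (SD 6.50), with T in 3 of 34, 5 of 23 and 7 of 50 reads.

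SCARNA5 and SCARNA6, mixed guides of U5 snRNA, both lie within ATG16L1 on chromosome 2. Their first 28 bases agree at 26 positions, and the last 8 bases (CTGAGACC) are identical. SCARNA5 was the deeper of the pair, with median imbalanced depths of 140, 122 and 146 against 48, 38 and 55 in SCARNA6. It had 61 called positions of 145 listed, and SCARNA6 had 13 of 73. Over listed positions the share of reads with T was the higher in SCARNA6. Of the G, A and C bases, 37.2% were listed in SCARNA6 and 74.0% in SCARNA5. The listing rule leaves out low ratios at low depth, so these shares are not at like depth. Reads with T made up 3.62% ± 0.281 (SD, n = 3) in SCARNA5 and 5.78% ± 0.214 in SCARNA6 under imbalanced dNTP, and 0.185% ± 0.0116 and 0.516% ± 0.0724 under balanced dNTP.

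The same base of the terminal D box was the highest called position of each gene. In SCARNA5 this is the G of position 271 (chromosome 2, 233275997), with T in 10 of 65, 11 of 53 and 8 of 52 reads, a ratio of 17.2% ± 3.10 (SD, n = 3). In SCARNA6 it is the G of position 260, with T in 6 of 34, 10 of 50 and 7 of 58 reads (16.6% ± 4.07). Neither position was listed under balanced dNTP, so its input depth is unknown. At a depth of at least 50 the highest position of SCARNA6 was the G of position 251 (chromosome 2, 233288926), with T in 6 of 55, 15 of 72 and 12 of 79 reads (15.6% ± 4.98). Replicate 1 was the low one at that base, and the 3 replicates spanned 10.9% to 20.8%. SCARNA5 also had 3 called positions above 13% in its middle part, and the G of position 155 was the best covered, with T in 33 of 245, 28 of 195 and 25 of 203 reads.

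The third base (G) of every CTGA was compared in the 6 genes that are C/D, mixed or hold a C box, on the transcribed strand only. CTGA was present in 34 of all 47 scaRNA loci (72.3%), so it does not single out these genes. Of the last CTGA of each gene, 4 of 6 were listed and called, with ratios of 4.49% to 17.2% and a median of 13.5%. The other 14 were all listed, 7 were called, and their ratios ran from 1.22% to 10.7% with a median of 3.49%. SCARNA2 was the low exception, at 4.49% in its last CTGA with a lowest depth of 435. In ENSG00000252139 the last CTGA had 10.5% ± 2.56 (SD, n = 3) and an earlier CTGA had 10.7% ± 0.592. The last CTGA of SCARNA7 and that of SCARNA17 were not listed, so the median leaves them out. SCARNA17 and ENSG00000252139 lie in 1 RefSeq gene, and the last CTGA of the SCARNA17 record is 49 nt from its end. The lowest depths at the last CTGA were 52 in SCARNA5, 34 in SCARNA6 and 66 in ENSG00000252139. At the other CTGA they were 117 to 193 in SCARNA5, 36 and 46 in SCARNA6, and 45 and 97 in ENSG00000252139. The comparison of CTGA was chosen after the values were seen and has no test.

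SCARNA13, an H/ACA guide built of tandem H/ACA units and hosted by SNHG10 on chromosome 14, held 29 of the 30 called H/ACA positions. Its median imbalanced depths were 70.5, 68.5 and 98, and its median balanced depths 155.5, 113.5 and 140. Reads with T made up 4.55% ± 0.211 (SD, n = 3) and 0.287% ± 0.0940. Its highest called position was the G of position 267 (chromosome 14, 95533363), with T in 15 of 69, 10 of 52 and 20 of 86 reads (21.4% ± 2.03), and it was not listed under balanced dNTP. The G lies 8 bases from the 3′ end. At 5 of the 9 other positions shown in capitals the input was listed, and the balanced libraries there had at most 1 read with T each. The median ratio of its called positions was 8.73% at a median lowest depth of 69. In SCARNA2 the same medians were 4.11% and 180, and in SCARNA5 5.04% and 142.

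SCARNA7, a C/D guide of U1 snRNA within KPNA4 on chromosome 3, was the longest listed gene after SCARNA2 but was shallow. It had median imbalanced depths of 38, 35 and 53, and 6 called positions of 77 listed. The G of position 236 was its highest, with T in 7 of 28, 5 of 40 and 7 of 51 reads under imbalanced dNTP and 0 of 66, 1 of 46 and 0 of 70 under balanced dNTP. On the 300 nt to either side of SCARNA2, SCARNA5, SCARNA6, SCARNA7 and SCARNA13 no position was listed under imbalanced dNTP on the gene's strand, so that the listed signal ended with the annotated gene. Under balanced dNTP 2 positions were listed beside SCARNA2 and 1 beside SCARNA5.

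**Figure D2:**
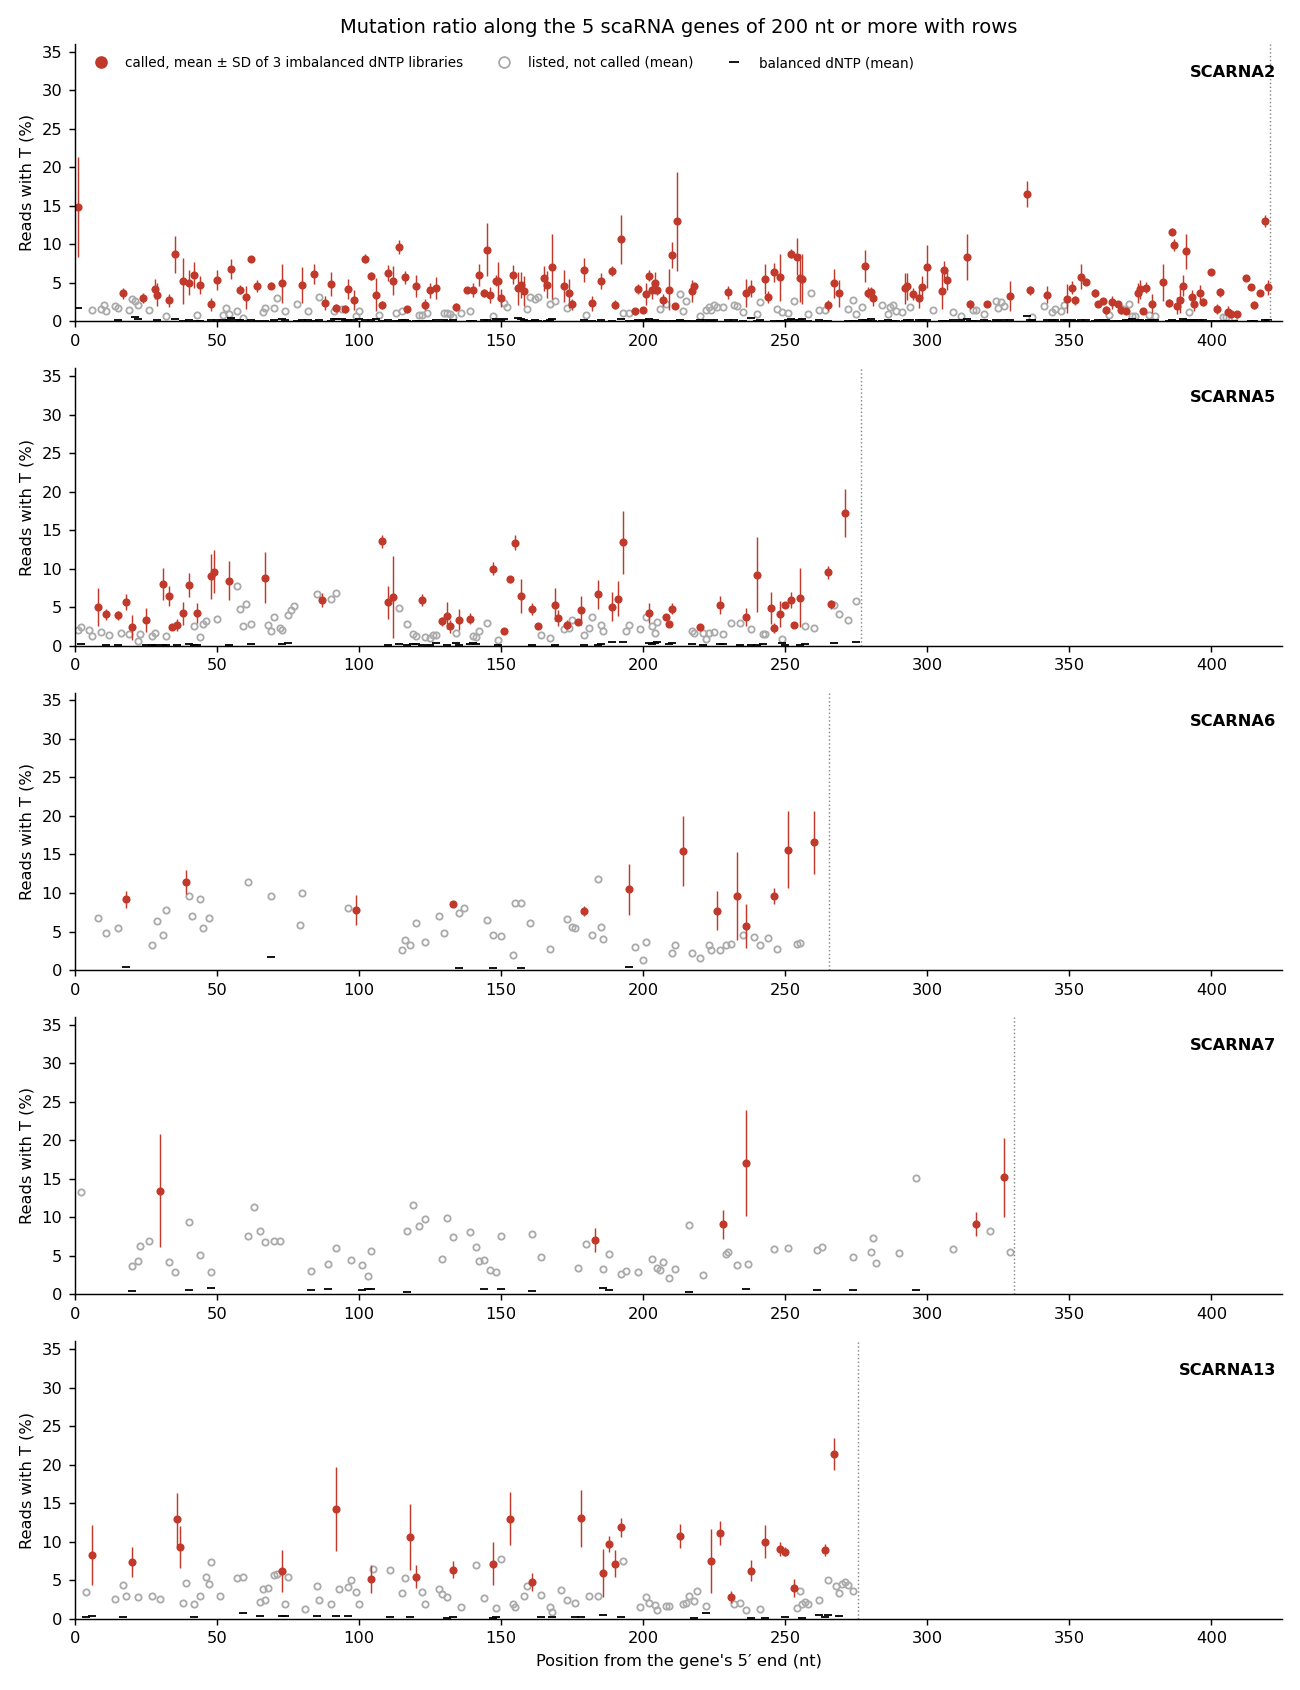
Mean mutation ratio (%) of each listed position against its distance from the gene's 5′ end (nt) in SCARNA2, SCARNA5, SCARNA6, SCARNA7 and SCARNA13. Red points are called positions with the SD of 3 imbalanced dNTP libraries, grey circles listed positions that were not called, black bars the balanced dNTP mean, and the dotted line marks the 3′ end. In SCARNA5, SCARNA6 and SCARNA13 the highest called point (17.2%, 16.6% and 21.4%) lay near the 3′ end.

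The last 20 nt, a window set after the values were seen, were not high as a whole in every gene. The reads with T were 5.65% ± 0.0917 (SD, n = 3) in the last 20 nt of SCARNA5 and 3.66% ± 0.306 of its middle part, and 8.21% ± 1.98 against 5.42% ± 0.0871 in SCARNA6. In SCARNA2 the order was opposite, with 2.62%, 2.87% and 2.87% against 3.18%, 3.38% and 3.31% in replicates 1 to 3, and in SCARNA13 the values were 4.84% ± 0.926 and 4.50% ± 0.186. SCARNA7 had the widest gap, at 9.70% ± 2.30 against 5.74% ± 0.153. Its last 20 nt held only 4 listed positions, at a median lowest depth of 35, where the listing rule favours high ratios. ENSG00000252139 was lower in its last 20 nt, at 3.79% ± 0.298 against 5.27% ± 0.103.

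SCARNA17, a C/D guide, and ENSG00000252139 are separate records of GENCODE on chromosome 18, both within SNHG22. RefSeq (GRCh38.p14) places SCARNA17 over 421 nt, from 49814023 to 49814443, which covers both records, and this span was looked at after the values were seen. Of 80 listed imbalanced positions of that span, 19 lay in the GENCODE record of SCARNA17, 40 in ENSG00000252139, and 21 in neither. ENSG00000252139 was the deeper end, with median imbalanced depths of 64.5, 53 and 65.5 against 25, 25 and 36, and 6 called positions against 1. Reads with T made up 4.75% ± 0.136 (SD, n = 3) in ENSG00000252139 and 7.85% ± 0.165 in SCARNA17. The only called position of SCARNA17 was a C with T in 3 of 26, 4 of 20 and 3 of 35 reads.

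The other 6 listed loci are short H/ACA guides. SCARNA16 had 1 called position, a G with T in 3 of 14, 3 of 15 and 4 of 12 reads, the highest mean ratio of all at 24.9% ± 7.32 (SD, n = 3) and among the shallowest. SCARNA4, SCARNA22, SCARNA20 and SCARNA3 had 14, 7, 3 and 1 listed imbalanced positions, and none was called. SCARNA11 had 1 listed position, under balanced dNTP only. In SCARNA3 the single position had 0 of 5, 3 of 9 and 0 of 7 reads with T, and so its share cannot be read as a level.

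Reads with T were then compared between conditions over the 334 positions listed in both tables. They made up 3.47%, 3.62% and 3.64% of the imbalanced depth and 0.131%, 0.166% and 0.155% of the balanced depth in replicates 1 to 3. The difference of 3.42 percentage points ± 0.0763 (SD, n = 3 pairs) had the same direction in 3 of 3 pairs (p = 0.25 in a two-sided exact paired permutation test, the lowest value 3 pairs can give). It was 4.05 without SCARNA2. Position by position, the ratios of the 2 conditions did not overlap at 271 of the 334 positions (81.1%), higher under imbalanced dNTP, against 75.2% over all positions listed in both tables. The same held at 3326 of 3607 box C/D and 2183 of 2440 box H/ACA snoRNA positions, and depth was not matched. Of the 334 scaRNA positions, SCARNA2 held 206. At 0 of the 334 was the imbalanced side the lower one without overlap, against 0.238% over all.

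By edgeR's quasi-likelihood test over the 32284 positions that reached a depth of 10 in each of the 6 libraries, adjusted over all of them, 266 of 334 scaRNA positions (79.6%) had a higher mutated share under imbalanced dNTP at an adjusted p under 0.05, against 73.9% of all positions. The median log2 change was 4.02 in scaRNA genes and 3.94 over all. The higher positions were 189 of 206 in SCARNA2, 39 of 58 in SCARNA5, 22 of 33 in SCARNA13, 8 of 19 in SCARNA7, 4 of 6 in SCARNA6 and 4 of 10 in ENSG00000252139. The scaRNA share thus rested on SCARNA2, and no other scaRNA gene reached 73.9%. In box C/D snoRNA genes 3255 of 3584 tested positions were higher, and in box H/ACA snoRNA genes 2139 of 2434. These shares were not compared at like depth. No scaRNA position was lower by edgeR or DESeq2, and 0 were lower by edgeR at an unadjusted p under 0.05, against 0.0558% lower by edgeR over all positions. The listing rule asks for 3 reads with T under imbalanced dNTP and for only 1 under balanced dNTP, so both directions were not weighed equally. Without replicate 1, 2 or 3 the edgeR count was 163, 174 or 158, and Fisher's exact test in each replicate gave 130 positions higher in all 3. With imbalanced and balanced libraries exchanged, 0 positions met the criteria for a call, and the highest mean balanced ratio at any scaRNA position of both tables was 1.71%.

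**Figure D3:**
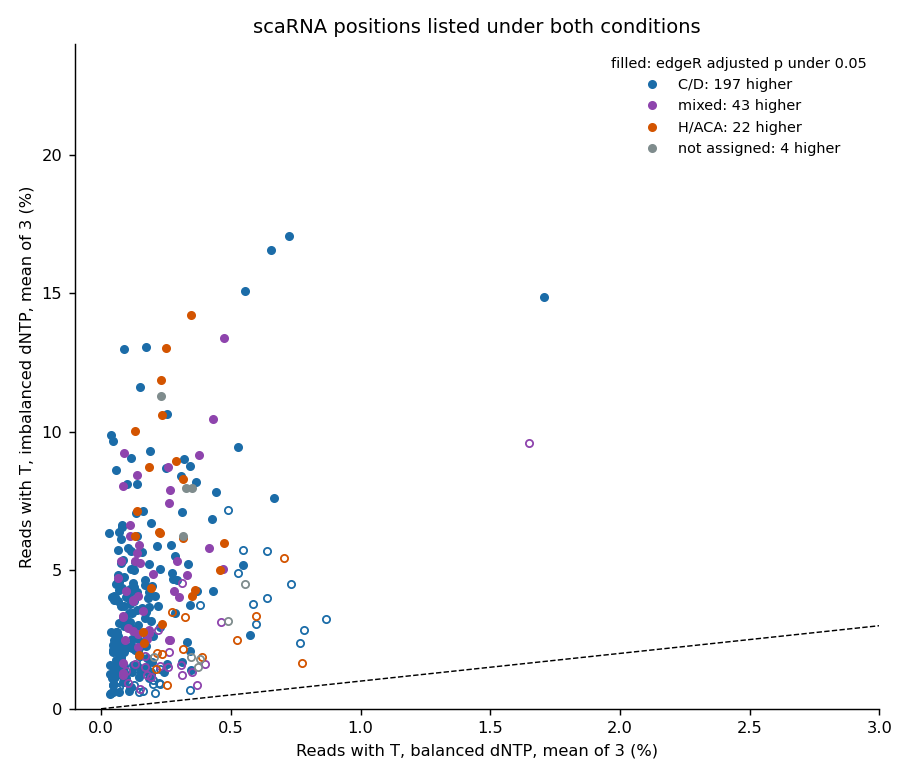
Mean share of reads with T under imbalanced dNTP (vertical axis, %) against balanced dNTP (horizontal axis, %, drawn to 3) for the 334 scaRNA positions of both tables. Filled points had an adjusted p under 0.05 by edgeR, colours are the types, and the dashed line marks equal shares. All points lay above the line, and the highest balanced mean was 1.71%.

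The imbalanced depth was a smaller part of the balanced depth in scaRNA genes than over all positions, and it was lowest in SCARNA2. Over positions in both tables, the summed imbalanced depth was 0.450 ± 0.0817 (SD, n = 3) of the balanced depth in scaRNA genes and 0.607 over all. SCARNA2 gave 0.424 ± 0.0779, SCARNA5 0.576 ± 0.103 and SCARNA13 0.599 ± 0.148. By type the mixed genes (0.574 ± 0.102) and the H/ACA genes (0.600 ± 0.146) lay near the value over all positions, and C/D genes gave 0.425 ± 0.0781. These ratios were not tested, and the libraries were not scaled to each other.

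Under imbalanced dNTP, reads with T over all listed positions made up 3.27%, 3.48% and 3.41% in C/D genes, 3.87%, 4.27% and 3.80% in mixed genes, and 4.86%, 4.59% and 5.02% in H/ACA genes. The 3 types did not overlap, in the order H/ACA, mixed, C/D in each replicate. The differences were -1.43 percentage points for C/D minus H/ACA, -0.843 for mixed minus H/ACA and -0.590 for C/D minus mixed (exact paired permutation tests, two-sided, p = 0.25 each, 0.25 after adjustment over the 3, the smallest possible).

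Over positions, the depth of the types ran the opposite way. Median depths averaged over the 3 imbalanced dNTP libraries were 162 ± 39.3 (SD, n = 3) for C/D, 101.5 ± 13.3 for mixed and 73 ± 14.7 for H/ACA positions. With 1 value per gene mixed passed C/D, and the median over genes of the gene medians was 42 for C/D, 91.5 for mixed and 16.4 for H/ACA genes. Across the 12 loci with imbalanced positions, depth and share of reads with T ran opposite, with a Spearman rho of -0.944 that describes these loci, which share libraries and the listing rule. At a lowest depth of 100 or more, reads with T made up 3.25% ± 0.108 (SD, n = 3) in C/D, 3.32% ± 0.272 in mixed and 4.75% ± 0.0265 in H/ACA genes. C/D and mixed genes then differed by -0.0762 percentage points ± 0.212 and overlapped (exact paired permutation test, two-sided, p = 0.75), and all 14 H/ACA positions of that depth were in SCARNA13. With 1 value per gene, C/D exceeded mixed by 0.974, and without the most read gene of each type (SCARNA2, SCARNA5 and SCARNA13) by 0.438, so the order of these types depended on single genes. The order also changed between classes of depth. From 10 to below 50, C/D genes had 6.78% ± 0.163, H/ACA genes 6.39% ± 0.871 and mixed genes 5.81% ± 0.463. From 50 to below 100, mixed genes (5.03% ± 0.377) were above H/ACA genes (4.37% ± 0.217).

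**Figure D4:**
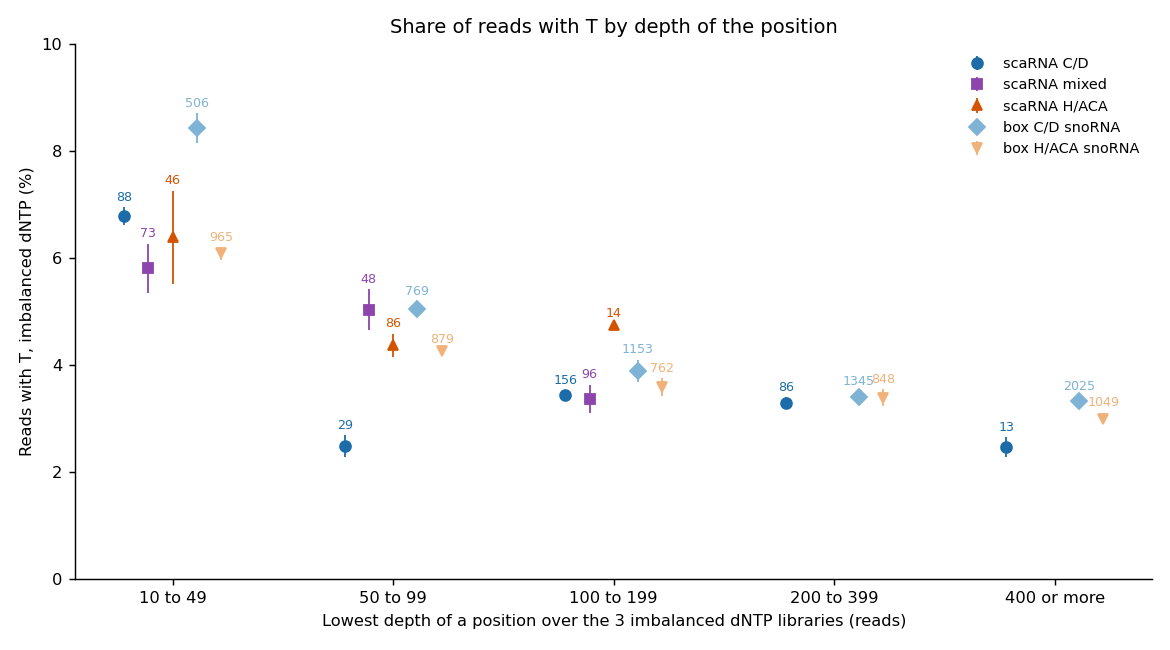
Share of reads with T under imbalanced dNTP (%, mean and SD of 3 libraries) by the lowest depth of the position, for C/D, mixed and H/ACA scaRNA genes and for box C/D and box H/ACA snoRNA genes. Numbers over the points count positions, and classes with under 10 positions are left out. From a depth of 10 to 49 to the next class the mean share was lower in all groups, at 2.48% in C/D, 5.03% in mixed and 4.37% in H/ACA scaRNA genes. At 10 to 49 these types had 6.78%, 5.81% and 6.39%.

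Set against small nucleolar RNA (snoRNA) genes, which guide the same modifications on ribosomal RNA, scaRNA genes had the higher share over all listed positions. It was 3.72% ± 0.101 (SD, n = 3), against 3.43% ± 0.107 in 5844 box C/D and 3.22% ± 0.121 in 4556 box H/ACA snoRNA positions, in 3 of 3 replicates each (exact paired permutation tests, two-sided, p = 0.25). At a depth of at least 100 the shares were 3.30%, 3.36% and 3.11%. The difference from C/D snoRNA turned to -0.0604 percentage points (exact paired permutation test, two-sided, p = 0.5) and that from H/ACA snoRNA was 0.194. Fewer listed positions were called in scaRNA genes at that depth, 56.1% against 79.6% and 75.5%, but the snoRNA genes were also deeper, with 2025 and 1049 positions at a depth of 400 or more against 13 in scaRNA genes. Between 100 and 199 the called shares were 50.9% in scaRNA, 57.7% in box C/D and 52.4% in box H/ACA snoRNA genes. Reads with T in that class made up 3.47%, 3.89% and 3.59%. The mean share in scaRNA genes was below that in box H/ACA snoRNA genes in each class from 50 up. From 10 to below 50 it was above, at 6.25% against 6.08%. Neither direction held at all depths.

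Among the 275 called positions, 145 were G, 86 C and 44 A. G made up 52.7% (Wilson 95% confidence interval from 46.8% to 58.5%), against 43.6% of the listed scaRNA positions and 40.1% of the called positions of the whole series. The interval covers counting error only, and neighbouring positions are not independent. Of the listed positions of the whole series G made up 47.3%, more than of the called ones. In C/D genes G was 48.5% of the called and 46.0% of the listed positions. In mixed genes the shares were 56.8% and 42.2%, and in H/ACA genes 63.3% and 40.5%. Of the bases present in each gene, SCARNA2 had 76 of 154 G, 63 of 121 C and 19 of 58 A called, SCARNA5 had 31 of 71 G, 14 of 60 C and 16 of 65 A, and SCARNA13 had 18 of 70 G, 5 of 61 C and 6 of 69 A. In SCARNA6 11 of its 13 called positions were G. By count G was thus the base most often called in each of these genes, while of the bases present in SCARNA2 a larger part of the C than of the G was called. C took 39.4% of the called C/D positions and 20.3% and 16.7% of the mixed and H/ACA ones, and 63 of the 65 C/D positions with C were in SCARNA2, whose GC content is 65.5%.

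The share of reads with T ordered the bases likewise. It was 4.16% ± 0.0919 (SD, n = 3) at G, 3.66% ± 0.139 at C and 2.90% ± 0.0736 at A over the listed scaRNA positions, with G above C and C above A in 3 of 3 replicates (p = 0.25 each in two-sided exact paired permutation tests, the lowest possible). Over all listed positions of the series the order was the same, at 5.12%, 3.93% and 3.46%. By the mean G led in every type, with the widest gap in H/ACA genes, at 5.99% against 4.37% at C, and the narrowest in C/D genes, at 3.65% against 3.53%, where C was above G in replicate 2. A ratio of at least 5% in each replicate was reached by 88 called positions, 11.2% of the listed ones against 5.27% in the whole series. These shares are not at like depth, with library medians of 90 to 136 in scaRNA genes and 15 to 23 in the whole series. In box C/D snoRNA genes 840 of 5844 listed positions were called at that ratio, and in box H/ACA snoRNA genes 547 of 4556. Of the 88 in scaRNA genes 54 were G, and of the 9286 in the whole series 5776 were G. A ratio of at least 10% in each replicate was reached by 17, of which 14 were G and 3 C, which is 2.17% of the listed ones against 1.69%. In the whole series 2161 of the 2980 positions at that ratio were G. It was reached by 174 box C/D and 96 box H/ACA snoRNA positions, again not at like depth.

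**Figure D5:**
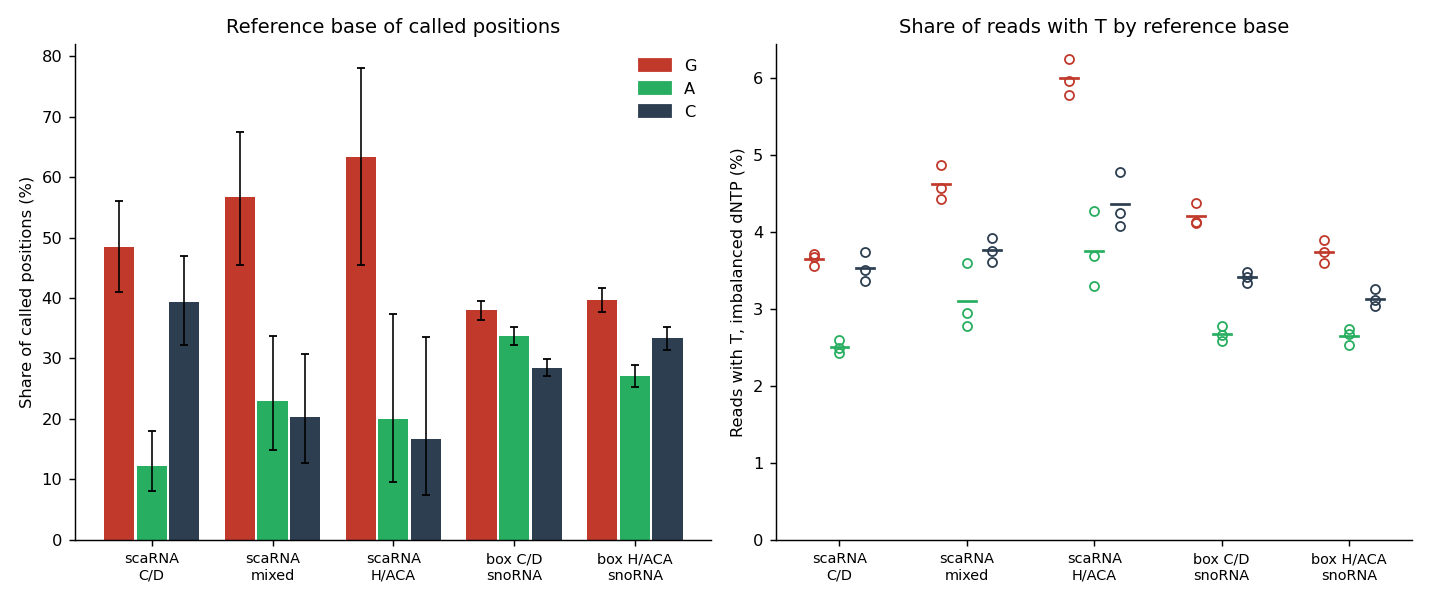
Reference base of called positions (left, % of the called positions with the Wilson 95% interval, counting error only) and share of reads with T by reference base under imbalanced dNTP (right, %, points are 3 libraries and bars their mean), for scaRNA types and snoRNA classes. G was the most frequent called base in each group, at 48.5% in C/D, 56.8% in mixed and 63.3% in H/ACA scaRNA genes.

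The base before the position also differed between strong and weak calls. A U stood before 28 of the 33 called positions with a mean ratio of at least 10% (84.8%) and before 116 of the 242 others (47.9%). It stood before 27.1% of all G, A and C bases of the genes with called positions. Over the whole series the share was 80.9% for called positions of at least 10%. The preceding base was looked at after the values were seen, and has no test. A U on both sides was present at 18.9% of the called and 10.4% of the other listed scaRNA positions, and over the whole series the order was opposite, at 17.2% and 28.4%.

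Among RNAs and proteins linked to this pathway, spliceosomal snRNAs and telomerase RNA were covered unevenly, and not every gene listed is a known scaRNA target. Of 24 snRNA and telomerase RNA genes, 23 were found in the annotation by symbol, 11 were listed under imbalanced dNTP and 10 had called positions. In all 363 of 610 listed positions were called, against 16.8% over the whole series. These shares are not at like depth. The median depths in imbalanced replicate 1 ran from 17 in TERC, the telomerase RNA, to 2638 in RNU5B-1, against 17 over the whole series. At a depth of at least 100 the whole series was called at 75.8%. By edgeR 399 of 432 tested positions were higher and 0 lower under imbalanced dNTP, against 73.9% higher over all. RNU5A-1 and RNU5B-1 had 57 called positions each, but U5 copies share sequence, so their reads are not separate. RNU2-1, the RNU1 genes, the RNU6 genes and RNU6ATAC had no listed imbalanced position. Of 21 genes for proteins of scaRNPs and Cajal bodies, 3 were listed, and called positions were found only in NOP56 and NOP58, whose introns host snoRNAs. COIL, which encodes the Cajal body scaffold coilin, and WRAP53, whose product brings scaRNAs to the Cajal body, were not listed. Among genes named SCARNA that GENCODE types otherwise and that are not members, SCARNA10 had 37 called positions of 128 listed, SCARNA12 had 14 of 87 and SCARNA9 had 5 of 42, against the same 16.8%, and SCARNA18 had none of 2. This too is not at like depth, with imbalanced replicate 1 medians of 92, 52 and 48.5 in SCARNA10, SCARNA12 and SCARNA9. Adding these SCARNA genes brought the count of called positions from 275 to 331.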

How the data were processed

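The deposited values are raw counts of reads for every base at a position, per strand and library. To make them, the authors removed adapters (Cutadapt) and UMI duplicates (BBMap), aligned the single-end 100 nt reads to hg38 (TopHat2), allowing multiple hits, and ran JACUSA. Near-identical genes may therefore share reads. JACUSA's score, also deposited, and the spike-in background were not used here.

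The members, types and lists were chosen with earlier results of these data known. All 783 scaRNA positions of the imbalanced dNTP table carry the base of hg38. Reads with and without T were fitted by edgeR 4.0.16 in R 4.3.3, whose quasi-likelihood F test was adjusted by Benjamini and Hochberg's method. The model held a term per library, a replicate block acting on the share with T, and the dNTP condition. DESeq2 1.42.0 and a Fisher's exact test per replicate served as alternatives. On simulated data with 200 changed positions among 32284, edgeR first recovered 4% of those with a log2 change of 2 and 23% of those with 4. The sizes were then raised, with the fit unchanged, and it recovered 38% of those with 4 and 98% of those with 6. It called 0 unchanged positions in both. The test thus missed most changes of 4 or less in these simulations. Their setting differed from the data, where 73.9% of positions were called higher, and their counts had binomial spread only. The recovered shares and the 0 false calls therefore do not carry over to the real positions. Shares of reads were compared by exact paired permutation over replicates. Other steps used Python 3.11.15 (numpy 2.4.6, pandas 2.3.3, scipy 1.17.1; matplotlib 3.10.9 for plots).

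Replicate numbers pair the libraries, since each pair was divided from the same ligated RNA. Their deviations in log2 depth had correlations of 0.746, 0.590 and 0.871 within replicates 1, 2 and 3, and of 0.699 and 0.599 across replicates 1 and 2. The depth of a position sets the precision of its ratio.

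Genes with at least 10 called positions were described with their values. In each, the called position with the highest mean ratio at a depth of at least 50 in every imbalanced dNTP library was named. Positions lower by edgeR, or with a mean ratio of at least 0.1 in both conditions, would have been named too, and there were none. Other positions were named after their values were seen. Alternatives changed the depth, the reads with T, the fold of input, the ratio, the input, the weighting of genes and the replicates.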

Additional observations from a re-analysis of the deposited data

How the results depend on the processing

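The number of called scaRNA positions, 275, was 251 to 276 with a minimum depth of 20 or 50, 5 times input, pooled input or no overlap with another small RNA gene. It fell to 151 with at least 5 reads with T, 164 where the input had to be listed, 88 at a ratio of at least 0.05, 17 at 0.1, 117 without SCARNA2 and 0 with the libraries exchanged. Leaving out each replicate gave 313 to 354. The share of G, 52.7%, rose to 61.4% and 82.4% at these ratios and 59.0% without SCARNA2, and was 50.4% to 52.1% without each replicate. In the whole series 5776 of 9286 and 2161 of 2980 called positions were G at ratios of at least 0.05 and 0.1. The edgeR count of 266 was 296 with no replicate block, 158 to 174 without each replicate and 130 by Fisher's exact test. The other result fitted without the block, SCARNA2 position 335, kept its call. C/D minus mixed reversed to 0.974 with 1 value per gene and to 0.438 without the most read genes, and scaRNA minus C/D snoRNA to -0.0604 at a depth of 100. All other differences of reads with T kept their direction in these alternatives, where depth had at most a lower bound. With 1 value per gene C/D minus H/ACA was -3.60 and mixed minus H/ACA -4.57. Within classes of depth some directions turned. By the mean, C/D exceeded H/ACA genes from 10 to below 50, at 6.78% against 6.39%. Mixed exceeded H/ACA genes from 50 to below 100, at 5.03% against 4.37%. The share in scaRNA genes was below that in H/ACA snoRNA genes in each class from 50 up. The median depth of C/D positions was 42 over genes and 484 under balanced dNTP, that of H/ACA positions 16.4 and 105, and that of mixed positions 91.5 and 199, so that over genes mixed was above C/D. The alternatives without SCARNA2, at a depth of 100, with libraries exchanged, with other SCARNA genes and with ENSG00000252139 as C/D were chosen after seeing the data. The causes were not tested. A call needs 3 reads with T in every replicate, so low ratios were not detectable in the shallow short genes.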
